A study of Mus musculus with 11 samples.

Results

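The difference between Tet2 siRNA and control siRNA was measured in untreated BV2 cells, an immortalised mouse microglial line, across all genes of the deposited expression table. The 6 libraries of untreated cells were taken by the labels of the table's columns, out of 11 libraries in the series: 3 from cells given a non-targeting control siRNA and 3 from cells given siRNA against Tet2, both delivered with a Lipofectamine lipid reagent. All cells were grown in DMEM-based medium with 10% fetal calf serum and moved to 5% serum at 48 h after transfection, and the other 5 libraries came from cells that also received 1 µg/ml lipopolysaccharide (LPS) for 3 h, 3 with control siRNA and 2 with Tet2 siRNA. The siRNA lowers a transcript for some days and deletes nothing, the whole study rests on a single cell line, and there was no untransfected group. Polyadenylated RNA was purified from 1 µg of total RNA and made into directional libraries.

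TET2 is a dioxygenase that oxidises 5-methylcytosine in DNA to 5-hydroxymethylcytosine and further forms, which base excision repair can replace with unmodified cytosine. It has no DNA-reading CXXC domain of its own, unlike TET1 and TET3, and in myeloid cells it also acts with partners on histone modification. Loss of TET2 is a common event in clonal haematopoiesis and myeloid leukaemia, and in macrophages it is known for limiting inflammatory cytokine expression. Microglia are the resident macrophages of the brain, recognised by genes such as Csf1r, Aif1, the complement C1q chains and receptors that signal through Tyrobp.

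Values below are normalised reads, which are reads divided by the size factor of the library, so they compare 1 gene across libraries and not different genes with each other. Differences are Tet2 siRNA minus control siRNA on the log2 scale of the deposited variance-stabilised values, which understates changes of genes with few reads. Whether the replicates of a group came from separate cultures is not in the labels, so p-values are relative to a spread between libraries. In the main fit that spread came from all 11 libraries, the 5 LPS-treated ones included. The 6 libraries held 8739716 to 23030426 reads on genes. The shallowest were Tet2 siRNA replicate 2, with 8739716, and control siRNA replicate 3, with 8764031. Control replicate 3 also held reads for 2520 genes at 0 in the other 5 libraries, against 14 to 201 such genes in each of the others, and its median distance from its group mates was 0.34 log2 units against 0.09 to 0.23. Main results are given with and without these 2 libraries.

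Of 11 microglia and macrophage markers, 9 were in the table and all 9 were read in every library, from 23.4 normalised reads of the fractalkine receptor Cx3cr1 to 36416 of the lysosomal protein Cd68. Markers of other cells were low in sum in both groups, except those of endothelium. Neuron markers summed to 9.91 to 86.1 normalised reads with control siRNA and 9.42 to 16.2 with Tet2 siRNA, with Rbfox3 and Slc17a7 at 0 in all 6 libraries. Astrocyte markers summed to 12.6 to 66.8 and 5.41 to 7.75, with Gfap at 0, and fibroblast markers to 4.89 to 42.2 and 1.45 to 5.41, with Dcn, Lum and Col6a1 at 0. In each of these 3 lists the highest sum was that of control replicate 3. Neutrophil markers reached at most 5.27, with Ly6g, S100a8 and S100a9 at 0, and T cell markers summed to 80.9 to 122 and 68.8 to 97.3, with Cd3e, Cd3g and Cd8a at 0. Oligodendrocyte markers summed to 173 to 302 and 122 to 173, with Mog, Olig1 and Olig2 at 0. Endothelial markers summed to 16667 to 22384 and 15969 to 18757, nearly all of it Flt1, Kdr and Vwf, while Cldn5 and Tie1 were at 0 and Pecam1 reached 6.52. The part of foreign RNA in the differences below was not tested.

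Tet2 itself, the target of the siRNA, did not separate the untreated groups. Control siRNA cells held 1988, 2399 and 1827 normalised Tet2 reads (mean 2071 ± 295, SD, n = 3), and Tet2 siRNA cells held 1453, 1988 and 1662 (mean 1701 ± 269, SD, n = 3). The groups overlapped, because replicate 2 of the Tet2 siRNA cells lay at the level of control replicate 1. The difference was -0.28 (SE 0.20; limma, unadjusted p = 0.175, adjusted p = 0.566). The two-sided exact permutation p was 0.2, where 3 libraries against 3 cannot go below 0.1. Without Tet2 siRNA replicate 2 the difference was -0.40 and the groups lay apart, while without control replicate 2, the highest control, it was -0.17. With library weights it was -0.41 (limma, unadjusted p = 0.00516, against the unadjusted 0.175 of the main fit). In the LPS-treated libraries Tet2 had 10405, 16792 and 14762 reads with control siRNA and 7969 and 9238 with Tet2 siRNA. The difference there was -0.67 (SE 0.22) and did not pass either (limma, adjusted p = 0.165). These groups lay apart, as 21.0% of all genes did in that direction with 3 libraries against 2. The relative Tet3 had 2599, 2283 and 3743 reads against 2345, 2047 and 2224, at -0.35 (SE 0.18; limma, adjusted p = 0.477), and at -0.14 without control replicate 3, its highest library. Tet1 had 0 reads in 5 libraries and a raw count of 6 reads, before division by the size factor, in control replicate 3. Over the 6 untreated libraries weighted alike, a reduction of the targeted transcript did not pass, protein and 5-hydroxymethylcytosine were not measured, and every difference below is between libraries labelled Tet2 siRNA and control siRNA.

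Across 12486 genes with enough reads, the differences were small and centred near 0, with a median of -0.0254 and 5th and 95th percentiles of -0.56 and 0.49. A single gene, Klhl30, was called lower (limma, adjusted p under 0.05, 0.00801% of genes) and 0 genes were called higher (0% of genes). At an unadjusted limma p under 0.05 there were 740 lower genes (5.93%) and 614 higher ones (4.92%), and 0 genes were called by voom on recovered reads, with 617 lower and 509 higher at its unadjusted p. All 3 Tet2 siRNA libraries lay below all 3 controls for 1226 genes (9.82%) and above them for 976 (7.82%). These shares are the background against which each count of genes lying apart in the 6 untreated libraries is to be read. Weighting libraries by their spread called 215 lower and 83 higher genes instead. In bulk RNA, less transcript in each cell and fewer cells of a state cannot be told apart. By size, 67 genes were at least 1 log2 unit lower and 52 at least 1 unit higher.

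**Figure D1:**
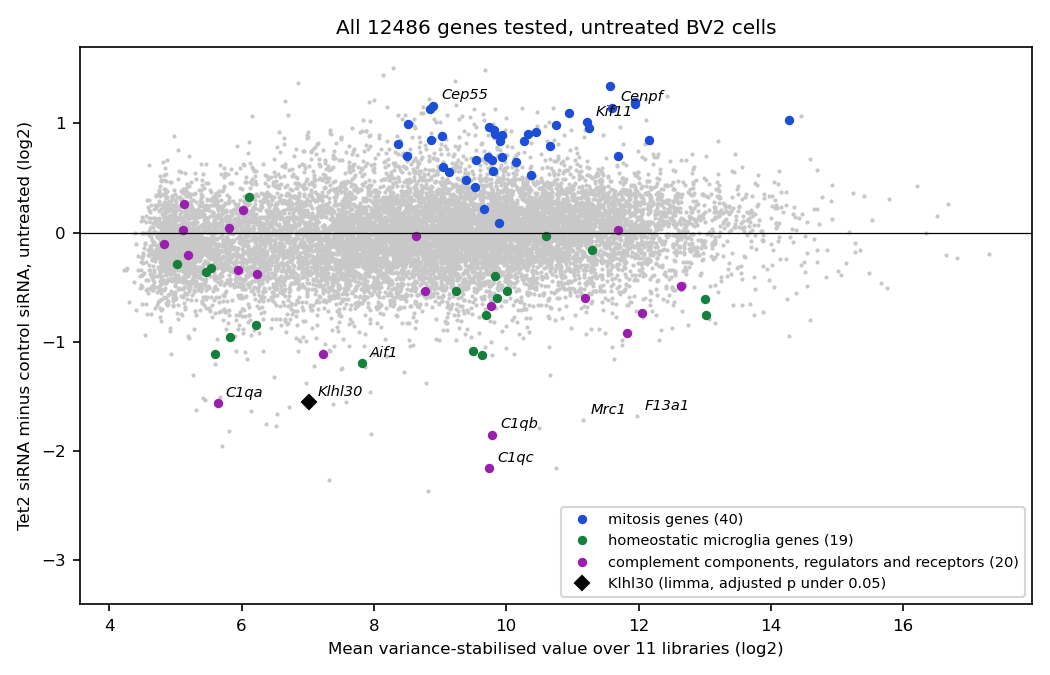
Each point is 1 of the 12486 genes tested, with its mean variance-stabilised value over 11 libraries (log2) on the x axis and its difference, Tet2 siRNA minus control siRNA in untreated cells (log2), on the y axis. The 40 mitosis genes (blue) all lie above 0, 18 of 19 homeostatic microglia genes (green) lie below it, and the complement genes (purple) reach down to C1qc at -2.15; Klhl30 (black diamond) is the single gene that passed the test.

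Klhl30, a member of the BTB-kelch family, whose members commonly act as adaptors of cullin-3 ubiquitin ligases, fell. Control siRNA cells held 330, 282 and 386 normalised Klhl30 reads and Tet2 siRNA cells 86.1, 81.1 and 116. The highest Tet2 siRNA library was thus far below the lowest control, and the spread within each group was small beside the gap. The difference was -1.55 (SE 0.20; limma, adjusted p = 0.0492), and it stayed between -1.25 and -1.76 in every alternative processing, while the adjusted p ranged from 0.00456 to 0.525. The call was lost with most alternatives, including the removal of 10 of the 11 libraries in turn, all but control siRNA with LPS, replicate 3. Of 33 BTB-kelch genes tested, 8 lay apart below the controls (24.2%, against 9.82% of all genes) and 0 above. Their median was -0.15, or -0.04 without Tet2 siRNA replicate 2. Among them Klhl18 was at -0.38 with its libraries apart, and Klhl12 was at 0.50, or 0.26 without control replicate 3, with libraries that overlapped. These relatives did not pass the test.

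The 3 chains of C1q, the recognition molecule of the classical complement pathway, were the next group. C1qc had 1370, 1272 and 3503 normalised reads in control siRNA cells and 407, 292 and 485 in Tet2 siRNA cells. C1qb had 1271, 1226 and 2574 against 453, 332 and 487, and C1qa, the chain with the fewest reads, had 49.5, 27.2 and 121 against 4.31, 7.21 and 6.52. Every Tet2 siRNA library lay below every control for all 3 chains, and control replicate 3 held the highest value of each. The differences were -2.15 (SE 0.33) for C1qc, -1.85 (SE 0.31) for C1qb and -1.56 (SE 0.35) for C1qa, and none passed over all genes (limma, adjusted p = 0.14 for C1qc, adjusted p = 0.21 for C1qb and adjusted p = 0.335 for C1qa). Without control replicate 3 they were -1.69, -1.51 and -1.16, and without Tet2 siRNA replicate 2 as well -1.50, -1.35 and -1.20. With library weights all 3 chains passed, at -1.53, -1.40 and -1.14 (limma, adjusted p = 0.00456, adjusted p = 0.00491 and adjusted p = 0.019).

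The promoter windows of C1qc and C1qb, from 250 bases before to 50 after the annotated start in RefSeq on GRCm38.p6, are shown because these genes had the largest differences of the lower leading genes and because cytosines before G are where TET2 acts. Both lie on the minus strand of chromosome 4, at chr4:136892865-136893164 for C1qc, with 3 CpG in 300 bases, and at chr4:136886151-136886450 for C1qb, with 6. Capitals mark GAGGAA or its reverse complement TTCCTC, a purine-rich sequence that holds the GGAA core recognised by ETS factors.
C1qc: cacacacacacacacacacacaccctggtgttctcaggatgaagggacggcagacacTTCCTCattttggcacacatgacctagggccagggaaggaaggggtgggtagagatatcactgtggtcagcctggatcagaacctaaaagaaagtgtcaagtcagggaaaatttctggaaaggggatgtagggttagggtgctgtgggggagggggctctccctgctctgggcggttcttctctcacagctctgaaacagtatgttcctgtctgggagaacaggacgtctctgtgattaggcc
C1qb: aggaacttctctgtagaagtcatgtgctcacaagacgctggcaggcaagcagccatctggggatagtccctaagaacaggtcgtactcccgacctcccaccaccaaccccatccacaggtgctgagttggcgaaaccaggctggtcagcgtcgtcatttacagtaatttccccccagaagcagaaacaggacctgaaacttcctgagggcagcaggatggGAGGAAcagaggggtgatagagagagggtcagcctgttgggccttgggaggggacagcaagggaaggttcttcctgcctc
Each window holds 1 match in capitals. Searched on both strands, GAGGAA was in 28.3% of all 32851 windows of the table and in 46.2% of the 13 windows of complement genes. It was in 58.3% of the 12 windows of the 12 leading lower genes (10 of which had a window), where Hgf and F13a1 each count with more than 1 matching window. It was also in 41% of the 39 windows of mitosis genes, which lay higher, and in 30.8% of the 13 windows of the leading higher genes. The match is thus not particular to lower genes. The leading lower genes had a median of 5.5 CpG per window against 7 over all windows. DNA methylation was not measured in these libraries.

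Complement genes were divided. Of 20 tested, the C1q chains included, 15 were below 0 and 5 above. Of the 20, 8 lay apart below the controls (40%, against 9.82% of all genes) and 0 above. The median was -0.43, or -0.26 without Tet2 siRNA replicate 2. Of the 17 besides C1q, 12 were below 0 and 5 lay apart below, with a median of -0.34. Properdin, Cfp, which stabilises the alternative pathway convertase, had 225, 164 and 241 normalised reads against 156, 46.9 and 66.6, at -1.11 (SE 0.33). The complement receptor chain Itgam had 4555, 6342 and 6438 against 3895, 2539 and 4019, at -0.74 (SE 0.25). The central component C3 was at 0.02 and turned to -0.43 without control replicate 3, and C2, the highest of the list, at 0.26, from 10.7, 7.69 and 5.27 reads against 20.7, 7.21 and 12.3.

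Microglial identity genes were lower on average, and 0 of them passed over all genes in the main fit. With library weights Aif1, Csf1r and Fcrls were among genes that passed (limma, adjusted p = 0.0083, adjusted p = 0.0141 and adjusted p = 0.0393). All 9 microglia and macrophage markers were below 0, with a median of -0.73, and 7 of the 9 lay apart below the controls (77.8%, against 9.82% of all genes). Csf1r, the receptor for CSF1 and IL-34 on which microglia depend, had 10926, 10053 and 10804 normalised reads against 7154, 5431 and 6357, at -0.75 (SE 0.17; limma, adjusted p = 0.335). Aif1, which encodes the actin-binding marker IBA1, had 235, 449 and 216 against 105, 99.1 and 120, at -1.20 (SE 0.25). Tyrobp, the signalling adaptor of many microglial receptors, had 6598, 5452 and 6335 against 4817, 2748 and 3839, at -0.72 (SE 0.23). Both groups lay apart for each of these genes. Of 19 homeostatic microglia genes, 18 were below 0 and 11 lay apart below (57.9%). Their median was -0.60, from Aif1 to the secreted protein Olfml3 at 0.32.

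Genes of the disease-associated microglia programme, the set known for rising around amyloid and dying neurons, lay lower in the same way. Of 22, 21 were below 0 and 9 lay apart below (40.9%, against 9.82% of all genes), with a median of -0.60. Axl, a TAM receptor for bridged phosphatidylserine, had 185, 157 and 137 normalised reads against 48.2, 16.2 and 50.7, at -1.57 (SE 0.34). Clec7a, the beta-glucan receptor Dectin-1, had 5374, 5765 and 5981 against 3772, 1750 and 3095, at -1.05 (SE 0.28). Trem2, the receptor upstream of Tyrobp, was the gene above 0, at 0.06 (SE 0.30), with 8308, 8063 and 3455 reads against 7412, 5851 and 6000. Its sign rests on control replicate 3, the lowest of the 6 libraries, without which it was -0.36 and every Tet2 siRNA library lay below the other controls. The disease-associated and homeostatic lists, which change in opposite directions in that programme, had the same median over the 6 libraries. Without Tet2 siRNA replicate 2 both stayed below 0, at -0.34 and -0.56.

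Surface receptors formed another group with low values, in lists that share members with those above, such as Tyrobp, Trem2 and Axl. Of 30 Fc and paired immune receptors, 26 were below 0 and 13 lay apart below (43.3%, against 9.82% of all genes), with a median of -0.49. The activating paired receptors Pilrb1 and Pilrb2, near-identical copies whose reads the counting may have divided between them, were at -1.09 (SE 0.21) and -0.96 (SE 0.20), with 129, 102 and 82.6 Pilrb1 reads against 37.9, 27.0 and 39.8. Of 14 TAM and scavenger receptors, 11 were below 0 and 7 lay apart below (50%), with a median of -0.44. Mrc1, the mannose receptor, had 5159, 5816 and 2047 reads against 1945, 883 and 947, at -1.72 (SE 0.38). Its lowest control, replicate 3, was only just above the highest Tet2 siRNA library, and without control replicate 3 the difference was -2.19.

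Digestion and presentation genes had smaller differences. Of 23 lysosome and cathepsin genes, 22 were below 0, with a median of -0.36. Only 3 lay apart below (13%), near the 9.82% of all genes. The cathepsin Ctsh had 2808, 2220 and 3173 normalised reads against 2024, 995 and 1539, at -0.88 (SE 0.30). The 15 MHC class I presentation genes had a median of -0.30, or -0.16 without Tet2 siRNA replicate 2. Of these, 3 lay apart below (20%) and 1 above (6.67%, against 7.82% of all genes), the peptidase Erap1 at 0.52 (SE 0.17). The 11 MHC class II and costimulatory genes had a median of -0.24 and 1 apart below (9.09%, near the share of all genes), Cd74. This gene, the invariant chain, had 3790, 2906 and 3923 reads against 2332, 1101 and 1457, at -1.16 (SE 0.30). Of 17 matrix proteases and inhibitors 7 lay apart below (41.2%). Their median of -0.53 was -0.21 without Tet2 siRNA replicate 2 and -0.16 without control replicate 3 as well. Mmp14, a membrane metalloprotease among the leading lower genes, had 23.9, 31.4 and 24.6 reads against 8.61, 3.60 and 5.79, at -0.89 (SE 0.17).

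The other leading lower genes were varied. F13a1, the transglutaminase chain of coagulation factor XIII that marks some tissue macrophages, had 7260, 7268 and 6561 normalised reads against 3344, 1229 and 2479, at -1.68 (SE 0.35). Padi2, which converts arginine to citrulline in proteins, had 582, 935 and 743 against 275, 245 and 279, at -1.38 (SE 0.29). Serpina12, a serine protease inhibitor, had 95.8, 162 and 163 against 26.7, 16.2 and 45.6, at -1.59 (SE 0.31). Each of the 12 leading lower genes lay apart in untreated cells, which their choice by p favours, and the list held Hgf, a growth factor, at -0.97 and Lrrc25, a leucine-rich repeat membrane protein, at -0.97 as well. Outside the leading genes, Arg1, the arginase that competes with nitric oxide synthesis, had 2648, 2257 and 2986 reads against 1103, 292 and 1202, at -1.78 (SE 0.50), or -1.16 without Tet2 siRNA replicate 2.

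**Figure D2:**
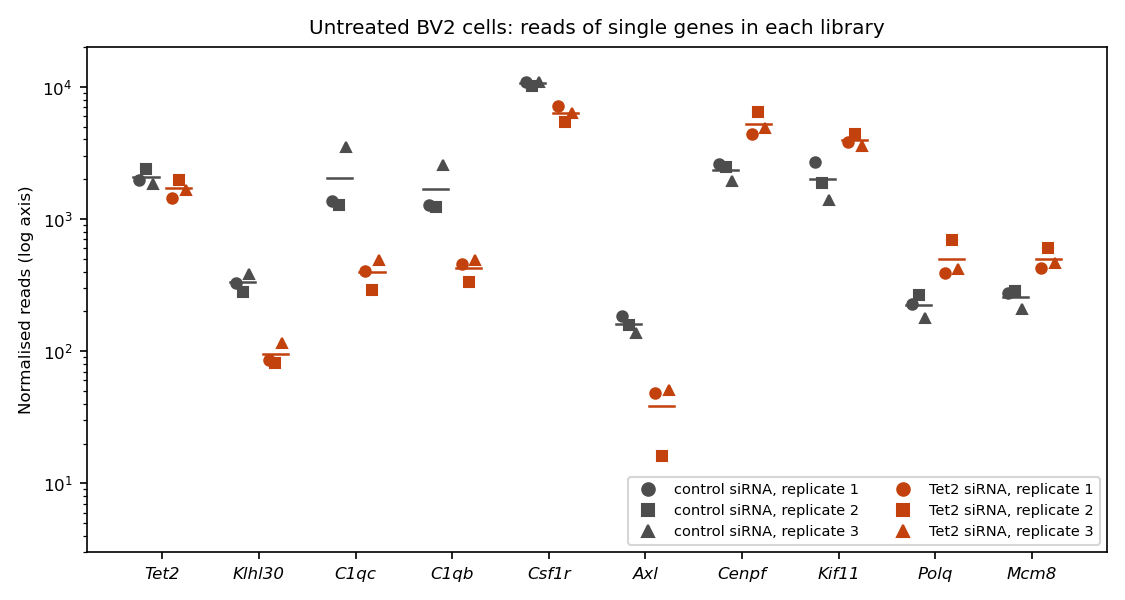
Normalised reads (log axis) of 10 genes in each untreated library, control siRNA in grey and Tet2 siRNA in orange, with the symbol giving the replicate and the bar the mean of 3 libraries. Tet2 values overlap between groups, Klhl30, C1qc, C1qb, Csf1r and Axl lie lower in all 3 Tet2 siRNA libraries, and Cenpf, Kif11, Polq and Mcm8 lie higher.

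Among higher values, genes of mitosis stood together, and again 0 passed over all genes in the main fit. With library weights Cenpf and Kif11 were among those that passed (limma, adjusted p = 0.019 and adjusted p = 0.0329). All 40 mitosis genes were above 0, 30 lay apart above the controls against 7.82% of all genes, and the median was 0.85, from Bub3 at 0.08 to Ube2c at 1.34, which was 0.79 without control replicate 3. Cenpf, a kinetochore protein made in G2 and mitosis, had 2595, 2484 and 1946 normalised reads against 4380, 6462 and 4895, at 1.14 (SE 0.23; limma, adjusted p = 0.335). Kif11, the kinesin that pushes spindle poles apart, had 2698, 1884 and 1393 against 3797, 4402 and 3571, at 1.01 (SE 0.24). Mki67, the gene of the proliferation marker Ki-67, named here for that use and not by the rule, had 12381, 16093 and 9920 against 18540, 38747 and 23710, at 1.03 (SE 0.31). In each of these genes the lowest Tet2 siRNA library was above the highest control, and replicate 2 of the Tet2 siRNA cells was the highest of all 6.

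The 12 leading higher genes, besides Cenpf and Kif11, were these. Prc1 bundles microtubules of the central spindle and was at 0.92 (SE 0.22), Cep55 acts at the midbody in abscission and was at 1.16 (SE 0.28), and Spag5 is a spindle protein and was at 1.06 (SE 0.26). Bod1, which orients chromosomes on the spindle, was at 0.77 (SE 0.18). Polq, the polymerase of end joining by microhomology, had 226, 268 and 177 normalised reads against 393, 692 and 420, at 1.04 (SE 0.21). Mcm8, a helicase of homologous recombination, had 277, 284 and 207 against 426, 602 and 467, at 0.88 (SE 0.19). The others were the uncharacterised gene 4930547N16Rik at 1.02, the importin Kpna2 at 0.78, the histone methyltransferase Whsc1 at 0.90 and Zbtb32, a zinc finger repressor, at 1.22 (SE 0.29), from 67.7, 110 and 42.2 reads against 149, 301 and 174. All lay apart from the controls, which their choice by p favours.

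DNA replication genes had a similar median and far fewer genes apart. Of 40, 38 were above 0, with a median of 0.65. Only 2 lay apart above (5%, below the 7.82% of all genes), Gins3 and Prim1. These are a subunit each of the replicative helicase complex and of primase. Mcm10, a factor of replication initiation, had 296, 569 and 325 normalised reads against 477, 1643 and 837, at 1.13 (SE 0.37). Rrm1, the large subunit of ribonucleotide reductase, had 1678, 2260 and 1370 against 1985, 5406 and 3519, at 0.94 (SE 0.33). Replicate 1 of the Tet2 siRNA cells lay within the controls for both, and without replicate 2 the differences were 0.69 and 0.60. Counting single libraries, 32 of 40 mitosis genes were above all controls in Tet2 siRNA replicate 1, 39 in replicate 2 and 35 in replicate 3, against 2, 38 and 32 of 40 replication genes in the same order. G1 regulators and replication-dependent histones had medians of 0.12 over 25 genes (0.03 without Tet2 siRNA replicate 2) and 0.11 over 52 (0.23 without control replicate 3). The histone median covers only reads from polyadenylated RNA, and total histone transcripts were not measured.

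The windows of Cenpf and Kif11 are shown for the letters shared by mitosis genes. Cenpf lies on the minus strand at chr1:189688037-189688336, with 31 CpG, and Kif11 on the plus strand at chr19:37376132-37376431, with 28, both in RefSeq on GRCm38.p6. Capitals mark TTTGAA, the usual form of the cell cycle genes homology region, and CCAAT, the sequence bound by NF-Y, on either strand (TTCAAA and ATTGG on the other).
Cenpf: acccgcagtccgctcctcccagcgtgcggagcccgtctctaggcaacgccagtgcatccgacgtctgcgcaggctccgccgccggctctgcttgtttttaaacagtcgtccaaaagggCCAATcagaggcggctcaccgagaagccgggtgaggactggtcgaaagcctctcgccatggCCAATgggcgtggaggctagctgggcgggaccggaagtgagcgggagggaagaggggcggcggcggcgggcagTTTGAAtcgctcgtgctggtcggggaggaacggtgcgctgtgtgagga
Kif11: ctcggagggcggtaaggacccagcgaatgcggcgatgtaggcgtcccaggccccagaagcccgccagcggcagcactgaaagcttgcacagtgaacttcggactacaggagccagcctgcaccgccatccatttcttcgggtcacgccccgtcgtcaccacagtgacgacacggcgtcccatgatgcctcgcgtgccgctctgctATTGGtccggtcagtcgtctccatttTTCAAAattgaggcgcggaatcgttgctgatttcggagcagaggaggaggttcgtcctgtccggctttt
TTTGAA was in 82.1% of the 39 windows of mitosis genes (35 of 40 genes had one) and CCAAT in 74.4%, against 17.9% and 37.4% of all 32851 windows. Windows of replication genes held TTTGAA in 10.5% and CCAAT in 57.9%, so these lists, both with medians above 0, differ most in TTTGAA. The 13 windows of the leading higher genes held them in 69.2% and 61.5%. The median was 24 CpG per window in mitosis genes and 21.5 in replication genes, against 7 over all windows and 5.5 in the leading lower genes. A match describes the letters and shows no bound factor.

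The 3 Tet2 siRNA libraries lay at different distances from the controls. For each list the median deviation of its genes from their mean over the 6 libraries was taken. For mitosis genes it was -0.30, -0.35 and -0.58 in the controls and 0.08, 0.90 and 0.28 in Tet2 siRNA replicates 1, 2 and 3. For disease-associated microglia genes it was 0.39, 0.28 and 0.23 in the controls and 0.11, -0.69 and -0.18. For homeostatic genes it was 0.39, 0.17 and 0.25 against -0.17, -0.58 and -0.19. Replicate 2, the shallowest of the 6 libraries and the one with the most Tet2 reads in its group, lay farthest from the controls in each, and replicate 1, with the fewest Tet2 reads, lay nearest. Without Tet2 siRNA replicate 2 the medians were 0.64 for mitosis, 0.29 for replication, -0.56 for homeostatic, -0.34 for disease-associated and -0.18 for lysosome genes. Without control replicate 3 as well they were 0.55, 0.31, -0.36, -0.34 and -0.12, all of the same sign as with 6 libraries. The part of library depth or growth state in these differences was not tested.

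**Figure D3:**
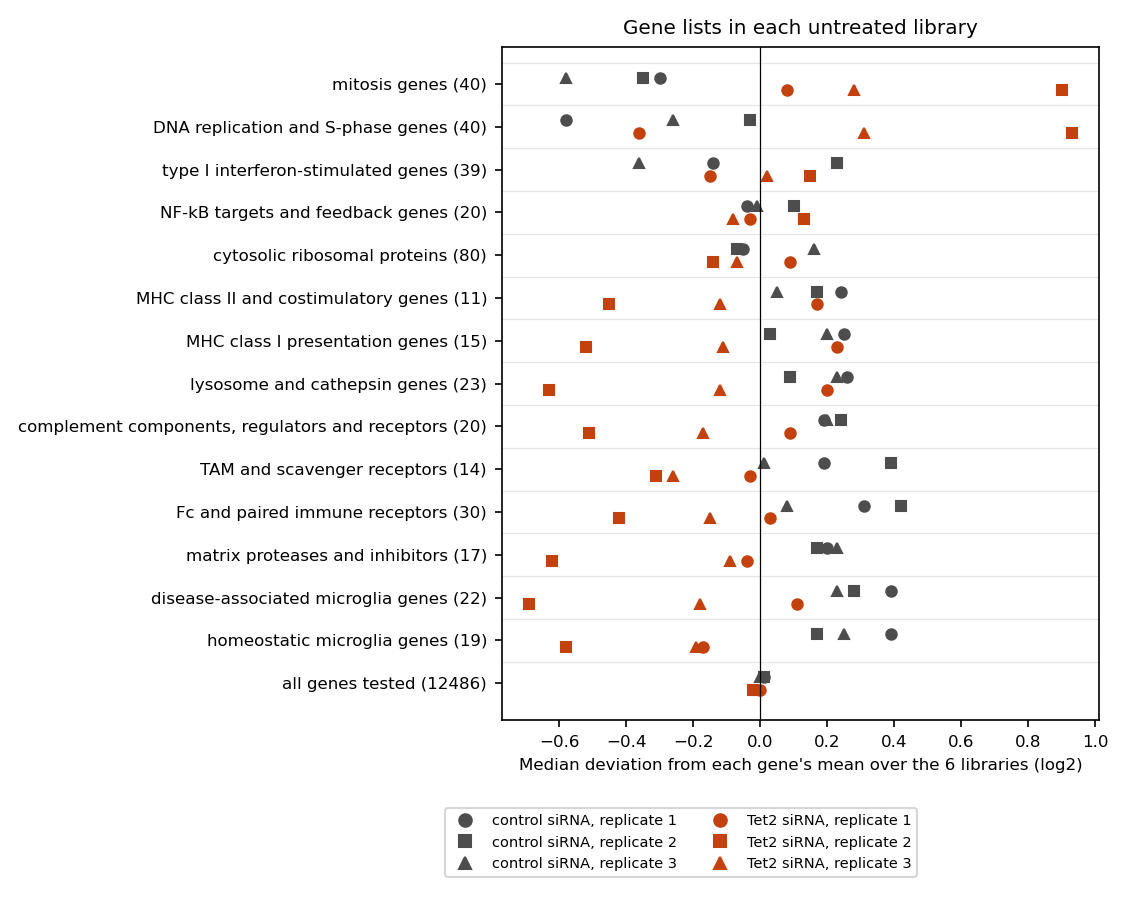
For each gene list (genes tested in brackets) the x axis gives the median deviation of its genes from their mean over the 6 untreated libraries (log2), 1 point per library, with control siRNA in grey and Tet2 siRNA in orange. Mitosis genes and homeostatic microglia genes lie apart between groups, Tet2 siRNA replicate 2 is the extreme library in both (0.90 and -0.58), and interferon-stimulated and NF-kB genes overlap.

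Genes that write, read and remove DNA methylation were near 0 as a list, with a median of -0.05 over 24 genes. In each direction 1 lay apart (4.17%), against 9.82% of all genes below and 7.82% above. Dnmt3a, a de novo methyltransferase, had 7991, 7908 and 8328 normalised reads against 6516, 4341 and 5634, at -0.57 (SE 0.17; limma, adjusted p = 0.356). Tdg, the glycosylase that removes oxidised forms of 5-methylcytosine, had 776, 916 and 613 against 984, 1364 and 1117, at 0.57 (SE 0.18). Both lay apart between groups. Uhrf1, which guides maintenance methylation at replication forks, had 353, 944 and 625 against 439, 2411 and 1339, at 0.89 (SE 0.50), or 0.36 without Tet2 siRNA replicate 2, and overlapped.

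Inflammatory lists had medians from -0.22 to 0.12 in untreated cells. For the 39 type I interferon-stimulated genes the median was 0.12, with 12 below 0 and 27 above. The median's direction is taken up next, and 1 gene lay apart above the controls (2.56%, below the 7.82% of all genes). The direction of this median rests on the 2 shallow libraries. The median was 0.01 without control replicate 3, 0.03 without Tet2 siRNA replicate 2 and -0.10 without both, with 23 below 0 and 14 above. Ifit2, an antiviral RNA-binding protein, had 65.2, 94.3 and 29.9 normalised reads against 62.0, 135 and 141, at 0.64 (SE 0.37), or 0.34 without control replicate 3, with libraries that overlapped. The 20 NF-kB targets and feedback genes had a median of 0.05, or -0.04 without Tet2 siRNA replicate 2. Of them, 1 lay apart above (5%, below the 7.82% of all genes), the ubiquitin ligase Birc3 at 0.50 (SE 0.21), or 0.23 without control replicate 3. The 17 cytokines had a median of -0.16, or -0.00 without Tet2 siRNA replicate 2, with 2 apart below (11.8%, near the 9.82% of all genes). The 17 chemokines had a median of -0.22, or -0.02 without control replicate 3, with 4 apart below (23.5%). Among them Pf4, a chemokine of platelets and macrophages, had 2108, 2202 and 1748 reads against 1671, 852 and 1132, at -0.76 (SE 0.25). The 20 inflammatory enzymes and effectors had a median of -0.21, or -0.34 without control replicate 3. Of these, 14 were below 0, 6 above and 4 lay apart below (20%), among them Arg1 at -1.78. The 25 TLR4 signalling components, which carry the response to LPS, had a median of -0.08. Of these, 3 lay apart below (12%) and 2 above (8%), near the 9.82% and 7.82% of all genes. Members of these inflammatory lists did not pass the main test, while with library weights some did, among them Pf4 (limma, adjusted p = 0.0298).

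The LPS-treated libraries, 3 with control siRNA and 2 with Tet2 siRNA, are other libraries than those above, and give the same siRNA contrast. All 12 leading lower genes had the same sign there, against 52.7% of all genes below 0, and 9 lay apart below, against 21.0% of all genes. On these 5 libraries alone, 9 of the 12 had an unadjusted limma p under 0.05, against 9.54% of all genes in that direction. Of the 12 leading higher genes, 11 had the same sign against 47.3% of all genes above 0, 10 lay apart above against 17.9%, and 10 had an unadjusted limma p under 0.05 against 6.46%. The fit of these 5 libraries called 0 genes after adjustment, and the smallest adjusted p by limma among Klhl30, C1qc and Cenpf was 0.204. The leading genes were chosen in a fit whose spread also came from the LPS-treated libraries. Chosen in the 6 untreated libraries alone, 12 of 12 lower and 12 of 12 higher genes had the same sign, although 8 and 3 of them were shared with the first choice. The libraries of both treatments carry the same replicate numbers, and whether they came from the same transfections is not given in the labels.

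Single genes show this. C1qc had 1287, 1324 and 1421 normalised reads with control siRNA after LPS and 261 and 450 with Tet2 siRNA, a difference of -1.87 that uses no untreated library. Klhl30, already lower after LPS in control siRNA cells with 78.7, 74.1 and 46.1 reads, had 19.5 and 22.6 with Tet2 siRNA, at -0.98. Cenpf had 1800, 1466 and 2362 against 5888 and 3560, at 1.30. All 3 genes lay apart in these libraries too, as they did in untreated cells. Zbtb32 was the exception among leading genes, with 519, 577 and 355 reads against 427 and 395, at -0.19, and the difference of its siRNA effects between treatments did not pass (limma, unadjusted p = 0.00589, adjusted p = 1).

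As lists, mitosis genes had a median of 1.09 after LPS, with all 40 apart above against 17.9% of all genes. Homeostatic microglia genes had one of -0.81 after LPS. The untreated medians of these lists were 0.85 and -0.60. Tet2 siRNA replicate 2 was again the library farthest from the controls, at 0.93 for mitosis genes, against 0.19 in replicate 3. Interferon-stimulated genes had medians of 0.12 untreated (-0.10 without the 2 shallow libraries) and -0.98 after LPS, where all 39 were below 0. For 19 of these 39 genes the difference between both siRNA effects had an unadjusted limma p under 0.05, against 281 of all 12486 genes, and 0 passed after adjustment. Over all 12486 genes the untreated and LPS differences had a Pearson correlation of 0.68, a description across genes that share libraries within each treatment. Of 1226 genes apart below the controls in untreated cells, 676 (55.1%) were also apart below after LPS, and of 976 apart above, 532 (54.5%) were.

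**Figure D4:**
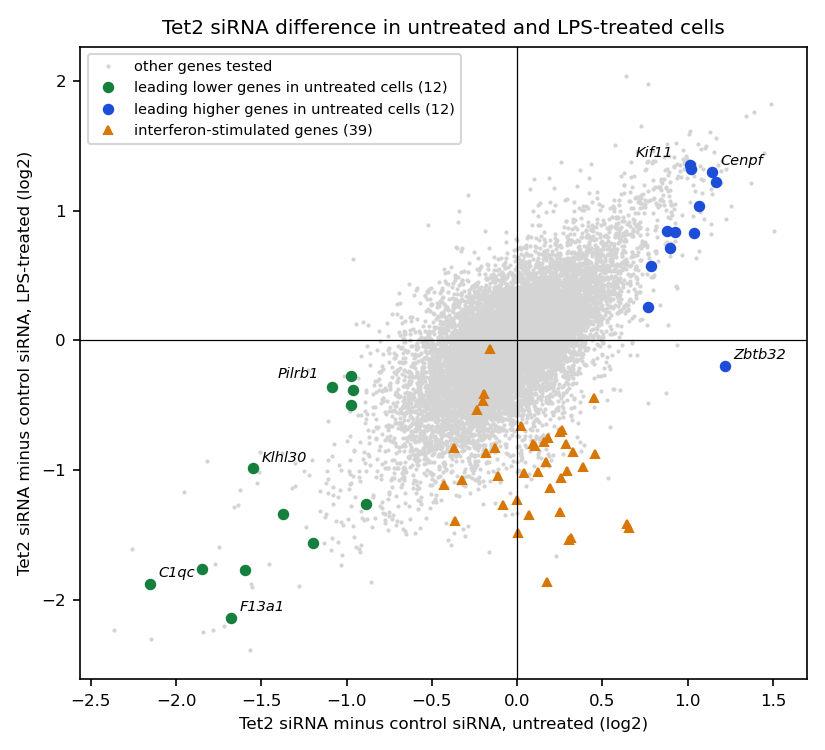
Difference between Tet2 siRNA and control siRNA (log2) for each gene in untreated cells (x axis) and in LPS-treated cells (y axis). The 12 leading lower genes (green) lie below 0 on both axes, 11 of the 12 leading higher genes (blue) lie above 0 on both with Zbtb32 as the exception, and the 39 interferon-stimulated genes (triangles) lie between -0.43 and 0.65 untreated and all below 0 after LPS.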

How the data were processed

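The deposited table holds 26061 genes in 11 columns of log2 values, variance-stabilised by the authors with DESeq2, per the submitters' processing notes and the values themselves. Those notes also name Trim Galore 0.3.3, TopHat2 2.0.9 and the mm9 build. The read counter, its strand setting, the annotation and the DESeq2 version were not given in the sources used here, so genes with near-identical copies or overlapping neighbours are uncertain. A gene with 0 reads has the value 4.02. The transform was inverted, which gave whole reads within 0.01 for 100% of values, from which reads per library (8739716 to 23030426 in the 6 untreated libraries) and normalised reads came. The main test used the deposited log2 values.

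A model with the 4 group means was fitted over 11 libraries with limma 3.58.1 in R 4.3.3, with a variance trend, two-sided moderated tests and Benjamini-Hochberg adjustment. The threshold was an adjusted p under 0.05, and 12486 genes entered, those at 1 log2 unit or more over the lowest value in at least 2 libraries. Lists are described by counts and medians, without a set test. Some lists share members, so a gene such as Tyrobp, Axl or Itgam is counted in more than 1 of them. Alternatives were other filters, scalings and fits, voom on recovered reads, library weights, a replicate block, and leaving out libraries. The weights came from the gene-by-gene estimator of limma, because its default estimator did not converge on these libraries.

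Named genes were the Tet genes, the 12 genes of smallest p in each direction (the leading genes), up to 3 members of each list by p, and members that give a list's range; others are described as chosen for their role, after their values were seen. These are Mki67, Uhrf1, Cfp, C3, Prim1 and the markers of other cells. The comparison, the lists and the rules were chosen with earlier results of these data known. The table has 25 names in the form of dates, which are left out of the text. Promoter windows were matched by symbol to RefSeq on GRCm38.p6, another build than that of the reads.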

Additional observations from a re-analysis of the deposited data

How the results depend on the processing

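The count of genes called was the least stable result. Library weights called 215 lower and 83 higher genes and gave Tet2 a difference of -0.41 (limma, unadjusted p = 0.00516), with weights from 0.204 for control siRNA replicate 3 to 9.57 for Tet2 siRNA replicate 3. Klhl30, the single gene called otherwise, was lost with no filter, a stricter filter of 9797 genes, quantile normalisation, the 6 untreated libraries alone and voom on recovered reads (0 lower genes each, with 961, 545, 685, 707 and 617 lower genes at an unadjusted limma p under 0.05). Leaving out libraries gave 0 to 1 lower genes called, and leaving out untreated ones gave 1491 to 2418 genes apart below the controls and 1232 to 2113 above, where fewer libraries make lying apart easier. At an unadjusted limma p under 0.05 there were 336 lower and 200 higher genes without Tet2 siRNA replicate 2, 458 and 278 without control siRNA replicate 3, and 224 and 91 without both. Among named genes, the p53 target Sesn2 and the glycolysis enzyme Gpi1 turned from -0.37 and -0.26 to 0.01 and 0.03 without both libraries (lowest values -0.58 and -0.39, without Tet2 siRNA replicate 1), and the cause was not tested. Without control siRNA replicate 3 Trem2 turned from 0.06 to -0.36 and C3 from 0.02 to -0.43.

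Same-numbered untreated libraries deviated from their group means with correlations of 0.22, 0.28 and -0.02 across genes, for replicates 1, 2 and 3. Libraries of different numbers had correlations from -0.31 (control replicate 2 with Tet2 siRNA replicate 1) to 0.04 (control replicate 3 with Tet2 siRNA replicate 1). The labels name no pairs, so the main fit took none, and these values do not settle whether replicates 1 and 2 were paired. With the replicate number as a block, 1 gene was called lower, C1qc (limma, adjusted p = 0.0359), and Klhl30 was not (limma, adjusted p = 0.0916). That fit had 950 lower and 856 higher genes at an unadjusted limma p under 0.05, against 740 and 614 in the main fit. The 8739716 reads of the shallowest library and 3 libraries a group limit what the test can call.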

Other observations

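Other groups of genes in untreated cells, none of them with a gene that passed the main test, were as follows. With library weights some of their genes passed, among them P2rx7, Maf and Sesn1 (limma, adjusted p = 0.0208, adjusted p = 0.0204 and adjusted p = 0.00456). Of 11 purinergic receptors and ectonucleotidases, through which microglia sense and clear extracellular nucleotides, 9 were below 0, with a median of -0.36. Of the 11, 5 lay apart below the controls (45.5%, against 9.82% of all genes). P2ry6, a UDP receptor linked to phagocytosis, had 55.3, 61.5 and 109 normalised reads against 27.6, 16.2 and 45.6, at -0.87 (SE 0.30), and P2rx7, an ATP-gated channel, had 3016, 2959 and 2299 against 2208, 1627 and 1944, at -0.51 (SE 0.17). All 14 LXR targets and cholesterol efflux genes were below 0, with a median of -0.30 (-0.17 without control siRNA replicate 3). Of them, 2 lay apart below (14.3%, against 9.82% of all genes). Of 22 myeloid transcription factors, 19 were below 0 and 6 lay apart below (27.3%), with a median of -0.24. Maf, a factor of tissue macrophages, had 1861, 2180 and 2373 reads against 1383, 1132 and 1184, at -0.78 (SE 0.19). Cebpa had 309, 385 and 1411 against 217, 229 and 215, at -1.23 (SE 0.42), and at -0.58 without control siRNA replicate 3, whose value stands far above its mates. Of 18 integrins and adhesion molecules, 7 lay apart below (38.9%) and 1 above (5.56%), against 9.82% and 7.82% of all genes. The 1 above was the leukocyte integrin chain Itgal, with 215, 263 and 232 reads against 277, 423 and 335, at 0.48 (SE 0.17).

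Most metabolic and stress lists lay close to all genes. The median was 0.02 over 79 genes of oxidative phosphorylation, -0.14 over 20 of glycolysis, -0.12 over 21 of cholesterol synthesis, -0.09 over 80 cytosolic ribosomal proteins, -0.11 over 24 of the unfolded protein response, -0.16 over 17 p53 targets and 0.03 over 22 NRF2 targets, beside -0.03 over all genes tested. Without control siRNA replicate 3 the medians were -0.01 for oxidative phosphorylation, -0.03 for glycolysis, 0.01 for ribosomal proteins, -0.07 for p53 targets and -0.01 for NRF2 targets. Without Tet2 siRNA replicate 2 they were -0.22 for cholesterol synthesis and -0.05 for the unfolded protein response. Cholesterol synthesis genes, 18 of 21 below 0 with 6 libraries, were all 21 below 0 without both of these replicates. Their median was then -0.26, against -0.01 over all genes. Without control siRNA replicate 2, the library where these genes lay highest (list deviation 0.32), their untreated median was 0.04, so its sign rests on that library. After LPS their median was 0.08, with 7 below 0 and 14 above. The sestrin Sesn1, a p53 target, had 768, 810 and 631 normalised reads against 422, 528 and 414 in untreated cells, at -0.66 (SE 0.16; limma, adjusted p = 0.335). After LPS, where the control libraries had 102, 98.8 and 106 reads, it differed by -0.08. The difference of its siRNA effects between treatments did not pass after adjustment (limma, unadjusted p = 0.0334). The immediate early genes had a median of -0.29 over 23, and -0.06 without control siRNA replicate 3 and Tet2 siRNA replicate 2. The receptors Flt1 and Kdr, known from endothelium, were read in this line at 11169 to 16196 and 3089 to 4678 normalised reads, with differences of -0.02 and -0.26. Vwf, the endothelial clotting factor carrier, had 839, 1504 and 1368 reads against 784, 323 and 698 and lay apart, at -1.05 (SE 0.33), or -0.68 without Tet2 siRNA replicate 2, and at -1.55 after LPS. Among markers of other cells with few reads, S100b had at least 10.5 reads in each control library and at most 1.80 in each Tet2 siRNA library, and Mbp had 43.8, 38.4 and 38.6 against 19.8, 16.2 and 8.69, each apart and at -0.77.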
